A study of Mus musculus with 22 samples.

Results

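Ribosome biogenesis and nucleolar genes were followed in mouse skin fibroblasts after a hydrogel expander was placed under the skin. The set holds 43 genes, chosen by symbol for their part in rRNA transcription, rRNA processing or subunit assembly, out of 55414 genes in the count table. All 43 passed the filter on low counts, which 17554 genes passed, and the lowest count of any of them in any library was 24 (Rrs1). RNA came from back skin of mice that had all been operated on. EXP mice carried the expander, and CTRL mice had the same operation without one. The 22 libraries fell into 6 groups, with 4 CTRL against 5 EXP on day 1, 3 against 3 on day 2, and 4 against 3 on day 4. Strain, sex and age are not given in the sources used here. The sort left out cells with CD31, CD45, CD117 or EpCAM on their surface and took live cells with CD34 and PDGFRα, so the results describe the cells of that gate and not whole skin. The labels do not say that each library is a separate mouse, so p-values measure the spread between these libraries, which may in part be technical.

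Ribosomes are built mainly in the nucleolus. RNA polymerase I makes a long precursor rRNA, small nucleolar ribonucleoproteins (snoRNPs) guide its chemical modification, and the small subunit processome and the pre-60S particles cut it and fold it onto ribosomal proteins. The output of this pathway is tied to cell growth, and many of its genes are known targets of the transcription factor Myc.

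Libraries held 21461294 to 30210204 counts. The fibroblast and gate markers Pdgfra and Cd34 were present in every library and moved in opposite directions. Mean Pdgfra was 356, 239 and 296 CPM in CTRL and 638, 779 and 512 in EXP on days 1, 2 and 4, and mean Cd34 was 1409, 1847 and 1970 CPM in CTRL and 421, 440 and 1037 in EXP. The 8 fibroblast markers summed to 210904 to 283961 CPM (the usual depth-scaled unit of read counts, here on TMM-scaled library sizes) in day 1 CTRL and 93573 to 171417 in day 1 EXP. Their sum was 328653 to 408308 against 68164 to 171171 CPM on day 2, and 267501 to 369720 against 83411 to 280318 on day 4. Most of that sum was collagen mRNA (Col1a1, Col1a2 and Col3a1). TMM scaling, used for all CPM and fold changes here, sets the bulk of genes level between libraries. Immune markers summed to 66.6 to 113 CPM in day 1 CTRL and 72.8 to 93.4 in day 1 EXP. Their sum was 144 to 184 against 107 to 183 CPM on day 2, and 123 to 161 against 107 to 195 on day 4. The immune-defining gene Ptprc was at 0 in 16 of 22 libraries. Single markers of this list moved in opposite directions. On day 1, mean Csf1r was 57.2 CPM in CTRL and 26.3 in EXP, and mean Cd14 was 21.1 and 38.1. On day 4, mean Cd3e was 2.87 CPM in CTRL and 18.6 in EXP. Adipocyte markers were higher in day 4 EXP (45.9 to 546 CPM) than in day 4 CTRL (2.64 to 7.93). The endothelial marker sum was also higher there (24.2 to 55.9 against 4.15 to 12.1), but most of it was 1 gene. Mean Tek was 28.4 CPM in day 4 EXP and 4.58 in day 4 CTRL. The other listed endothelial genes had day 4 means of at most 2.70 CPM (Pecam1 in EXP), and Cldn5 was level at 0.330 and 0.307. The libraries also fell on 2 sides of a gap in a set of 192 genes that rise and fall together within groups. The high side held CTRL replicates 1 to 3 and EXP replicates 1 and 2 of day 1 with CTRL replicates 3 and 4 of day 4, and the low side held the other 15.

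Expander fibroblasts held more mRNA of this gene set on every day, with the highest sums on day 1. In CTRL libraries of day 1 the 43 genes summed to 1234, 1328, 1299 and 1357 CPM, and in EXP libraries to 3668, 3242, 2325, 2431 and 2814. The means were 1305 ± 52.9 (SD, n = 4) and 2896 ± 562 (n = 5), and the lowest EXP library lay well above the highest CTRL library. On day 2 the CTRL libraries held 1409, 1375 and 1423 CPM and the EXP libraries 2228, 2120 and 1897. On day 4 the CTRL libraries held 1744, 1485, 1365 and 1466 CPM and the EXP libraries 2097, 1845 and 2085. The groups did not overlap on any of the 3 days, but the gap narrowed to that between 1744 and 1845 CPM on day 4. In these bulk samples a different mix of cells within the gate and a different amount of RNA per cell cannot be told apart.

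**Figure D1:**
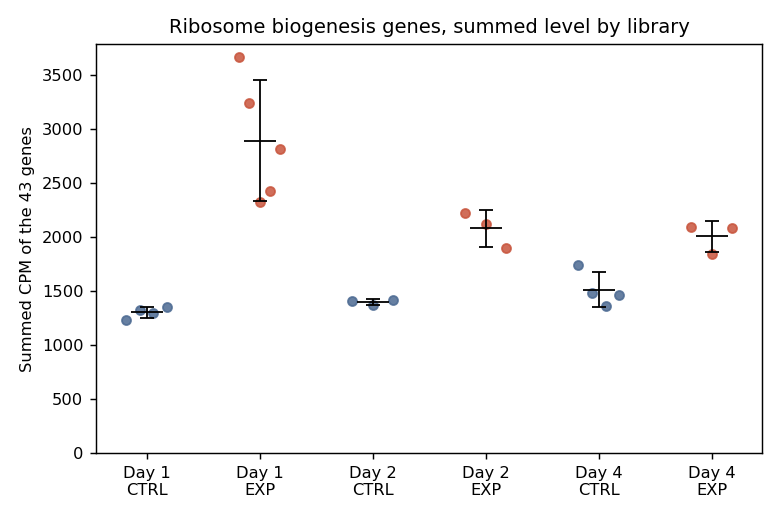
Summed level of the 43 genes in each library, in TMM-scaled CPM on a linear axis from 0. Points are libraries, horizontal bars the group mean and whiskers the SD. All EXP libraries lie above all CTRL libraries of their day, with day 1 EXP spread from 2325 to 3668 CPM.

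Calls were made by edgeR's quasi-likelihood test where the p-value, adjusted over all 17554 genes, was under 0.05. On day 1, 39 of 43 members were higher in EXP (90.7%), where 13.9% of all genes tested were called higher. On day 2 it was 22 members (51.2%) against 7.72% of all genes, and on day 4 it was 20 (46.5%) against 12.8%. No member was called lower on any day, where 14.7%, 5.71% and 9.66% of all genes were. At an unadjusted p under 0.05 edgeR found 0 members lower on each day, and DESeq2 called 0 lower with 0, 1 and 2 at an unadjusted p under 0.05. Every EXP library exceeded every CTRL library for 37 members on day 1 (all genes 11.7%), 35 on day 2 (20.9%) and 22 on day 4 (13.8%).

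The median log2 fold change of the 43 members was 1.16 on day 1, 0.73 on day 2 and 0.60 on day 4, and that of all genes tested was 0.02, 0.02 and 0.03. The value lay above 0 for 43, 42 and 36 members. Called members ranged from 1.63-fold to 4.59-fold higher on day 1, from 1.49-fold to 2.97-fold on day 2 and from 1.46-fold to 2.21-fold on day 4. Scaling by library totals alone moved the median of all genes to 0.21, 0.49 and 0.36, and the members then stood 1.12, 0.73 and 0.58 above it. With that scaling 39, 39 and 32 members were called higher. The share of all genes tested that were called higher also rose, from 13.9%, 7.72% and 12.8% to 19.4%, 23.9% and 24.3%. Among all calls, the share that were higher went from 48.7%, 57.5% and 57% to 66.2%, 90.5% and 80.7%.

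Single libraries counted for more on the later days. Of the calls, 38 on day 1, 12 on day 2 and 10 on day 4 held whichever library was left out. Without EXP replicate 1 of day 2 the day 2 count fell to 12, and higher calls over all genes fell from 1356 to 596. That library had an adipocyte marker sum of 107.8 CPM against 13.0 and 20.2 in the others of its group. Without EXP replicate 1 of day 4 the day 4 count fell to 12, and that over all genes from 2248 to 1144. Without EXP replicate 2 or 3 of day 4, the libraries with the higher adipocyte marker sums, the count was 16 each time. Over all genes it was then 1278 and 2682. Each such fit also has 1 library fewer, so it cannot show what part marker RNA of other cells plays. The part of the adipocyte and endothelial marker RNA, and of the opposite shifts of Pdgfra and Cd34, in these values was not tested.

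The overlap of calls between days was counted. All 22 members called on day 2 were among the 39 of day 1, which is 56.4% of the day 1 calls. Of the 20 called on day 4, 19 were among those of day 1, and the exception was Nop10. Nearly all members were called on day 1, so the overlaps with that day were largely fixed in advance. They cannot show a shared response. Day 2 and day 4 shared 16, which is 72.7% of the day 2 and 80% of the day 4 calls. These 16 were called on all 3 days, as were 2.5% of all genes, and they were Polr1a, Dkc1, Gar1, Nhp2, Mybbp1a, Wdr75, Rrp9, Ltv1, Rrp12, Bop1, Pes1, Wdr12, Nop16, Ebna1bp2, Grwd1 and Nop2. A further 9 were called on 2 days, 15 on 1 day, and 3 (Nop58, Rrs1 and Noc2l) on none.

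**Figure D2:**
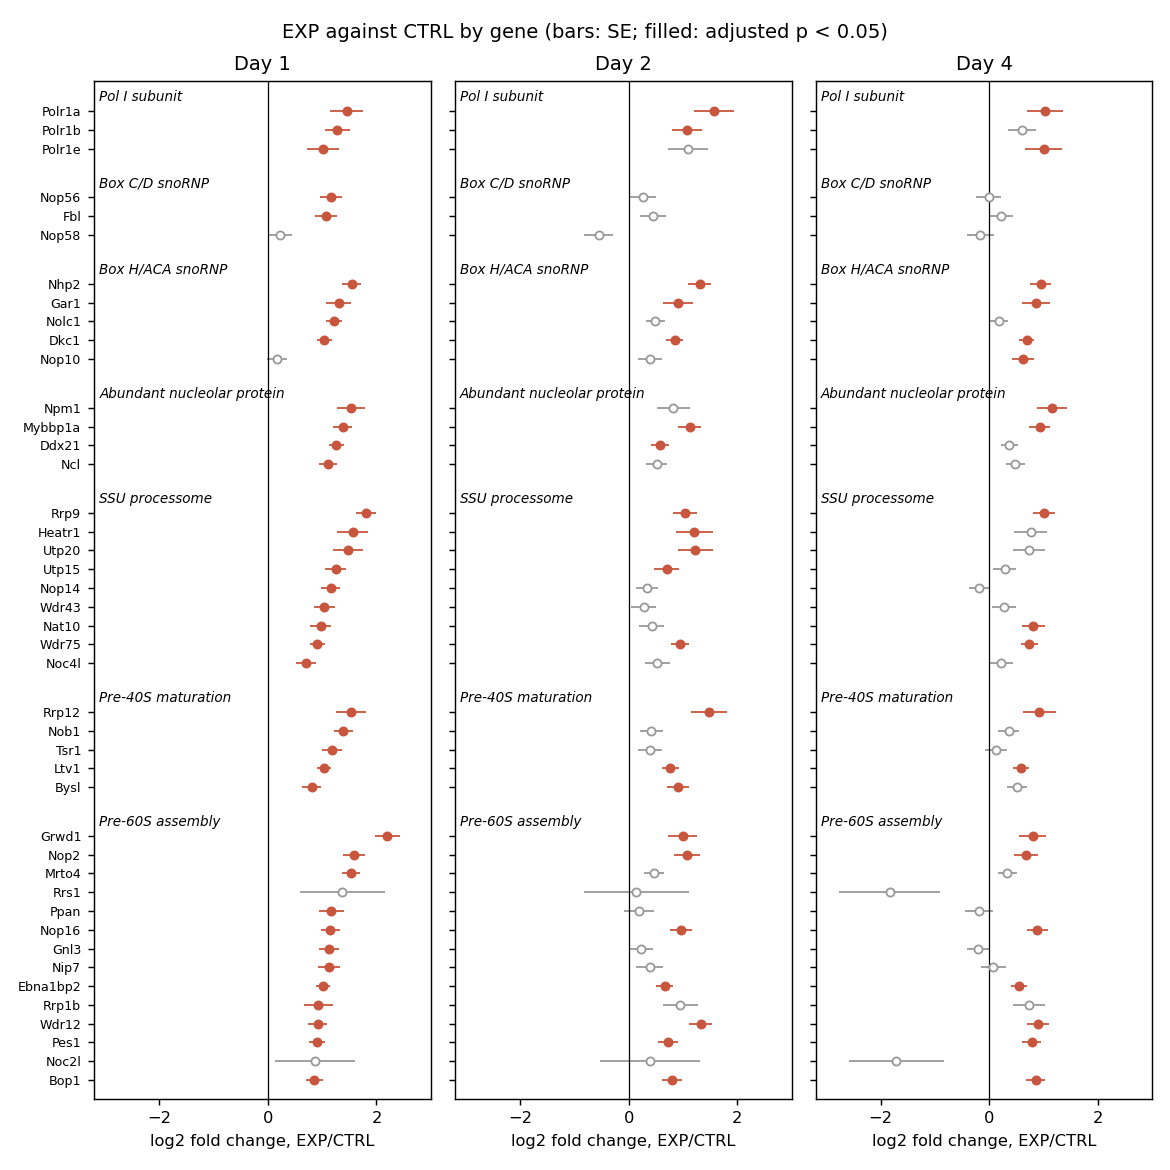
Log2 fold change of EXP against CTRL (x axis) for each of the 43 genes (y axis, ordered by role) on days 1, 2 and 4, with filled points for an adjusted p under 0.05 and bars for the standard error. Values on day 1 lie above 0 for all 43 genes, and on day 4 for 36.

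RNA polymerase I subunits were higher in 3 of 3 cases on day 1 and in 2 of 3 on days 2 and 4. Polr1a, the largest and catalytic subunit, had 11.4, 8.43, 8.26 and 10.7 CPM in day 1 CTRL and 39.8, 25.7, 12.9, 26.6 and 27.5 CPM in day 1 EXP. All EXP libraries were above all CTRL libraries, with replicate 3 nearest to them. Its day 1 difference was 1.45 on the log2 scale (SE 0.30, adjusted p = 0.00131). The day 2 difference was 1.57 (SE 0.36, adjusted p = 0.00747) and the last 1.03 (SE 0.33, adjusted p = 0.0303). The day 4 EXP libraries had 29.0, 11.5 and 19.0 CPM, and the second of these was just under the highest CTRL library at 11.6. The day 4 call was lost, at 0.66 to 1.07, without EXP replicate 1 or without CTRL replicate 2, 3 or 4. Polr1b, the second-largest subunit, was 2.43-fold and 2.10-fold higher on days 1 and 2 (log2 1.28 and 1.07, adjusted p = 4.01e-04 and 0.0150), and stood at 0.60 (adjusted p = 0.0924) on day 4. Its day 2 call was lost without CTRL replicate 1 or 2 or EXP replicate 1 (0.86 to 1.05). Polr1e was the lowest of the 3 at 4.75 ± 1.78 CPM in day 1 CTRL and was called on day 1 (1.01, adjusted p = 0.0154) and day 4 (1.00, adjusted p = 0.0391). The day 1 call was lost without CTRL replicate 2 (0.86) or 3 (0.87), and the day 4 call in 5 of 7 such fits, without CTRL replicate 2 or 4 or any EXP library (0.86 to 1.02).

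Core proteins of box C/D snoRNPs, which guide ribose methylation of rRNA, were higher in 2 of 3 cases on day 1 and in 0 of 3 by edgeR on days 2 and 4, with 0 higher at an unadjusted p under 0.05 and 0 called by DESeq2. Nop56, a core scaffold protein, had 72.9 to 91.2 CPM in the 4 CTRL libraries of day 1 and 294, 201, 126, 151 and 164 in the EXP libraries. The groups did not overlap, and the log2 fold change was 1.17 (SE 0.21, adjusted p = 3.12e-04). On day 2 it was 0.26 (adjusted p = 0.526) and on day 4 -0.02 (adjusted p = 0.968), with 94.7, 96.0 and 144 CPM in EXP and 93.5 to 129 in CTRL, so that the ranges overlapped. Fbl, the methyltransferase of the complex, was 2.10-fold higher on day 1 (log2 1.07, adjusted p = 5.03e-04) and stood at 0.44 and 0.22 later. Nop58, the paired scaffold protein, was called on no day, at 0.23 (adjusted p = 0.470), -0.55 (adjusted p = 0.192) and -0.17 (adjusted p = 0.678). Its means were 89.3 ± 11.9 CPM in CTRL and 104.8 ± 29.0 in EXP on day 1. On day 2 all its EXP libraries, at 61.3 to 87.8 CPM, lay below all its CTRL libraries, at 94.7 to 129. By DESeq2, 1 of the 3 box C/D genes was lower on day 2 at an unadjusted p under 0.05. Nop56 and Nop58 pair within the same particle, and the difference between their day 1 values was not tested.

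Box H/ACA proteins, which direct pseudouridylation, were higher in 4 of 5 cases on day 1, 3 on day 2 and 4 on day 4. Nhp2 had 21.1, 25.8, 26.7 and 39.9 CPM in day 1 CTRL and 69.7, 107, 84.1, 71.0 and 82.2 CPM in day 1 EXP. Its EXP libraries lay above its CTRL libraries on all 3 days, at 60.4 to 71.8 against 25.0 to 27.5 CPM on day 2 and 50.7 to 60.1 against 23.5 to 35.0 on day 4. In log2 terms EXP was higher by 1.54 (SE 0.17), 1.31 (SE 0.21) and 0.94 (SE 0.19), with adjusted p = 6.76e-06, 5.93e-04 and 0.00243. Per kilobase of all annotated exons joined, Nhp2 had the highest value of the 43, at 43.1 CPM per kb over all libraries. Npm1 followed at 36.9 and Nop56 at 31.1, while Wdr12 was lowest at 0.832. Joined exons of all transcripts came to 1146 bases for Nhp2, 10188 for Ncl and 11955 for Wdr12. They can exceed the length of the expressed mRNA, so this order depends on the annotation. Dkc1, the pseudouridine synthase itself, was 2.06-fold, 1.80-fold and 1.61-fold higher (log2 1.04, 0.85 and 0.68, adjusted p = 1.75e-05, 0.00164 and 0.00337). Gar1 was 2.46-fold, 1.89-fold and 1.81-fold higher, but its day 2 call was lost without CTRL replicate 1 or 2 or EXP replicate 1 (log2 0.72 to 0.93) and its day 4 call without CTRL replicate 3 or EXP replicate 1 (0.71 to 0.75). Nop10, the smallest core protein, had its values in the other order, at 0.17 (adjusted p = 0.516), 0.39 (adjusted p = 0.249) and 0.62 (adjusted p = 0.0318), and a difference of its effect between days was not called (adjusted p = 0.492). Its day 4 call was lost in 4 of 7 fits, without CTRL replicate 3 or 4 or EXP replicate 1 or 2 (0.41 to 0.69), and with the side of the library as a covariate (0.49, adjusted p = 0.0912). Nolc1, which binds both snoRNP classes, was 2.33-fold higher on day 1 (log2 1.22, SE 0.15, adjusted p = 1.33e-05) and stood at 0.49 (adjusted p = 0.0675) and 0.17 (adjusted p = 0.470) on days 2 and 4.

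The abundant nucleolar proteins were higher in 4 of 4 cases on day 1 and in 2 of 4 on days 2 and 4. Nucleolin (Ncl), which binds nascent precursor rRNA, had the highest CPM of the whole set. It had 155, 178, 185 and 210 CPM in day 1 CTRL and 462, 431, 260, 395 and 419 in day 1 EXP, without overlap (log2 1.11, SE 0.16, adjusted p = 6.00e-05). On day 2 its EXP libraries had 343, 312 and 281 CPM and its CTRL libraries 208, 222 and 223, again apart, but the adjusted p was 0.0783 (log2 0.52). On day 4 the value was 0.48 (adjusted p = 0.0589). It passed on day 2 without EXP replicate 3 of day 1 (0.51), and on day 4 without EXP replicate 1 or 3 of day 1 (0.48 each) or CTRL replicate 1 of day 4 (0.56), so its later values sit at the threshold.

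Nucleophosmin (Npm1), a nucleolar chaperone, had 43.5 to 57.8 CPM in day 1 CTRL and 120 to 193 in day 1 EXP (log2 1.54, SE 0.26, adjusted p = 2.05e-04). On day 4 its EXP libraries had 225, 114 and 90.4 CPM and its CTRL libraries 91.0, 81.3, 41.3 and 44.6, so that the ranges overlapped slightly and 1 EXP library stood far above the rest. The day 4 value was 1.15 (SE 0.28, adjusted p = 0.00748), and without EXP replicate 1 it was 0.68 and no longer called. On day 2 it was 0.83 (adjusted p = 0.0737), which passed without EXP replicate 1 of day 4 (0.82). Mybbp1a, a nucleolar partner of Myb, was 2.60-fold, 2.18-fold and 1.90-fold higher (log2 1.38, 1.13 and 0.93, adjusted p = 2.12e-05, 0.00178 and 0.00303). Ddx21, an RNA helicase, rose from 42.5 to 46.6 CPM in day 1 CTRL to 83.1 to 132 in EXP (log2 1.26, SE 0.14, adjusted p = 5.34e-06). It was called on day 2 (0.58, adjusted p = 0.0213), but not without CTRL replicate 3 (0.46), EXP replicate 1 (0.53) or EXP replicate 2 (0.53) of that day, and stood at 0.37 (adjusted p = 0.0802) on day 4.

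**Figure D3:**
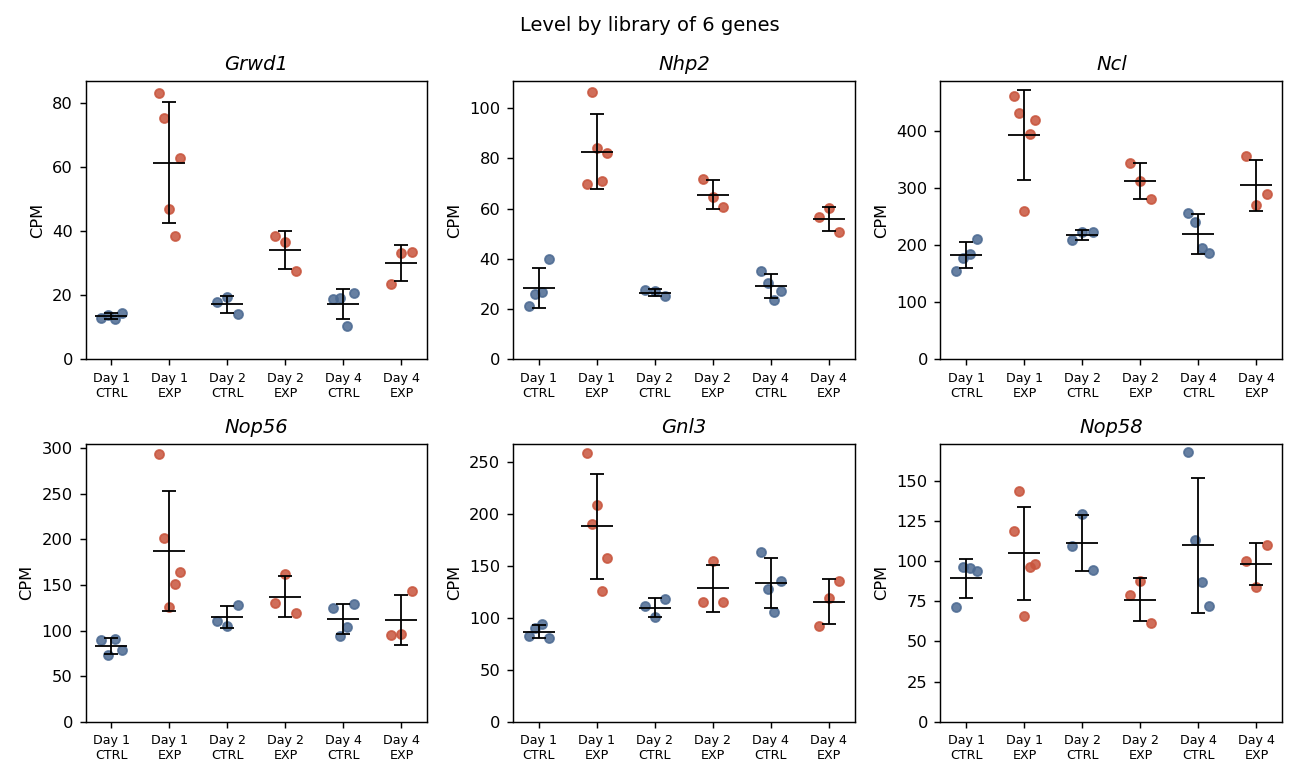
Level of Grwd1, Nhp2, Ncl, Nop56, Gnl3 and Nop58 in each library, in TMM-scaled CPM, by day and arm. Points are libraries, horizontal bars the group mean and whiskers the SD. Nhp2 libraries of EXP and CTRL stay apart on all 3 days, and Nop56 and Gnl3 libraries only on day 1. Nop58 libraries overlap on days 1 and 4, and on day 2 those of EXP lie below those of CTRL.

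Components of the small subunit processome, the large particle that forms on the precursor of 18S rRNA, were higher in 9 of 9 cases on day 1, 5 on day 2 and 3 on day 4. Rrp9, a protein of the U3 snoRNP, had 13.6, 14.3, 11.7 and 17.7 CPM in day 1 CTRL and 59.0, 60.9, 43.3, 34.6 and 51.5 in day 1 EXP. Every EXP library was well above the CTRL libraries, and the same held on day 4, at 27.1, 28.3 and 28.4 against 10.3 to 16.96 CPM. In log2 terms EXP was higher by 1.80 (SE 0.19), 1.04 (SE 0.22) and 1.01 (SE 0.20), with adjusted p = 3.93e-06, 0.00399 and 0.00225. Exons of Rrp9 overlap those of Parp3 on the opposite strand, and since strand use in counting is not given, part of its counts could be from that gene.

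Wdr75, Wdr43, Utp15 and Heatr1 belong to the subcomplex that binds the precursor first. Wdr75 was 1.88-fold, 1.93-fold and 1.66-fold higher (log2 0.91, 0.95 and 0.73, adjusted p = 9.53e-05, 0.00125 and 0.00347), with 32.1 to 56.9 CPM in day 1 EXP above 22.9 to 28.3 in CTRL. Wdr43 was 2.06-fold higher on day 1 (log2 1.04, SE 0.20, adjusted p = 5.42e-04), at 192, 187, 103, 93.8 and 129 CPM against 62.3, 82.6, 65.3 and 63.3. It stood at 0.28 (adjusted p = 0.473) and 0.27 (adjusted p = 0.388) later. Heatr1 and Utp15 were called on days 1 and 2, at 2.95-fold and 2.31-fold for Heatr1 and 2.38-fold and 1.62-fold for Utp15. The scaffold protein Utp20 was called on the same days, at 2.78-fold and 2.35-fold. On day 2 the call of Utp15 (adjusted p = 0.0485) was lost without any of 5 of the 6 libraries of that day, all but CTRL replicate 3, and without 9 single libraries of other days (log2 0.57 to 0.76). Without CTRL replicate 2 or EXP replicate 1 the day 2 calls of Heatr1 (0.94 and 1.09) and Utp20 (1.05 each) were lost. Nat10, the acetyltransferase of 18S rRNA, was called on day 1 (0.97, adjusted p = 7.86e-04) and day 4 (0.81, adjusted p = 0.0115), the latter not without EXP replicate 1 (0.69). Nop14 and Noc4l, which bind each other, were called on day 1 only, at 2.23-fold and 1.63-fold.

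Factors of late 40S maturation were higher in 5 of 5 cases on day 1, 3 on day 2 and 2 on day 4. Rrp12, which serves export of pre-ribosomes, had 28.2, 29.6, 32.7 and 28.7 CPM in day 1 CTRL and 141, 69.4, 50.8, 68.6 and 101 in day 1 EXP. The CTRL libraries were close together and the EXP libraries spread over a wide range above them (log2 1.53, SE 0.27, adjusted p = 3.61e-04). The day 2 difference was 1.48 (SE 0.33) and the day 4 difference 0.92 (SE 0.30), with adjusted p = 0.00555 and 0.0319. The latter call was lost, at 0.64 to 0.96, without CTRL replicate 1 or 2 or EXP replicate 1 or 3. Ltv1, a 40S assembly factor, was higher on all 3 days (log2 1.03, 0.77 and 0.58, adjusted p = 1.63e-05, 0.00304 and 0.00784). Nob1, the nuclease that makes the mature end of 18S rRNA, was 2.62-fold higher on day 1 (log2 1.39, adjusted p = 2.15e-05) and stood at 0.41 and 0.36 later. Tsr1 was 2.26-fold higher on day 1 and stood at 0.39 and 0.11. Bysl, whose exons overlap those of Ccnd3 on the other strand, was called on days 1 and 2 at 1.75-fold and 1.88-fold.

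Pre-60S factors were higher in 12 of 14 cases on day 1 and in 7 on days 2 and 4. Grwd1, a chaperone of a ribosomal protein of the large subunit, had the highest day 1 fold change of the 39 called members. It had 12.7, 13.7, 12.6 and 14.5 CPM in day 1 CTRL and 83.3, 75.6, 46.9, 38.3 and 63.0 in day 1 EXP. The CTRL libraries were within 2 CPM of each other and the lowest EXP library was far above them, which gave a 4.59-fold difference (log2 2.20, SE 0.23, adjusted p = 4.57e-06). On day 2 it was 0.99 (SE 0.27, adjusted p = 0.0184), which was lost without CTRL replicate 3 (0.87) or EXP replicate 1 (0.89). On day 4 it was 0.80 (SE 0.25, adjusted p = 0.0266), which was lost without CTRL replicate 3 (0.61) or EXP replicate 2 or 3 (0.71 each).

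Bop1, Pes1 and Wdr12 form the PeBoW complex, which acts in large subunit rRNA processing, and all 3 were called on all 3 days. Bop1 was 1.81-fold, 1.74-fold and 1.81-fold higher (log2 0.85, 0.80 and 0.85, adjusted p = 4.33e-04, 0.00813 and 0.00260), though on day 2 the call was lost without EXP replicate 1 (0.61). Pes1 was 1.88-fold, 1.66-fold and 1.72-fold higher, and its day 2 call was lost without CTRL replicate 2 (0.68) or EXP replicate 1 (0.57). Wdr12 was 1.89-fold, 2.51-fold and 1.86-fold higher (log2 0.92, 1.33 and 0.89, adjusted p = 6.24e-04, 6.97e-04 and 0.00395), with 11.4, 11.6 and 11.1 CPM in day 2 EXP and 3.58, 4.28 and 5.70 in day 2 CTRL. None of the 3 had a called difference between days (adjusted p = 0.985, 0.853 and 0.489). Nop2, an rRNA methyltransferase, was 2.99-fold, 2.12-fold and 1.59-fold higher, and its day 4 call was lost without CTRL replicate 2 or 3 or EXP replicate 2 or 3 (0.48 to 0.72). Nop16 was 2.21-fold, 1.95-fold and 1.85-fold higher and Ebna1bp2 2.02-fold, 1.58-fold and 1.46-fold higher. The calls of Ebna1bp2 were lost on day 2 without EXP replicate 1 (0.56) and on day 4 without EXP replicate 1 or 2 (0.51 each).

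Mrto4, which holds the place of a stalk protein on the maturing particle, had 8.48, 10.6, 10.9 and 12.0 CPM in day 1 CTRL and 35.3, 32.4, 29.6, 23.6 and 30.8 in day 1 EXP (log2 1.53, SE 0.16, adjusted p = 3.96e-06). It stood at 0.47 (adjusted p = 0.104) and 0.33 (adjusted p = 0.182) on days 2 and 4, and its counts could include reads of 2 pseudogenes annotated under its name. Pseudogenes under other names were not looked for, for any member. Gnl3 (nucleostemin), a nucleolar GTPase of proliferating cells, had 80.4 to 94.0 CPM in day 1 CTRL and 126 to 259 in day 1 EXP (log2 1.12, SE 0.18, adjusted p = 1.79e-04). On day 4 its EXP libraries, at 92.6, 119 and 136 CPM, lay among or below CTRL libraries of 105 to 164 (log2 -0.20, adjusted p = 0.505). Nip7, Ppan and Rrp1b were called on day 1 only, at 2.17-fold, 2.25-fold and 1.90-fold, and Rrp1b had nearly the same value on day 2 (0.95, adjusted p = 0.0526).

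Rrs1 and Noc2l, both pre-60S factors, were called on no day and followed the 2 sides of the libraries. Rrs1 had a log2 fold change of 1.37 (adjusted p = 0.204), 0.14 (adjusted p = 0.945) and -1.83 (adjusted p = 0.164), with standard errors of 0.79, 0.97 and 0.93. Noc2l had 0.87 (adjusted p = 0.403), 0.40 (adjusted p = 0.825) and -1.71 (adjusted p = 0.167). Both are among the 192 genes that set the 2 sides of the libraries, and after removal of group means they correlated with the mean of that set at r = 0.962 and 0.935 over 22 libraries, while the other 41 members had r between -0.58 and 0.62. With the side of the library as a covariate Rrs1 was called on day 1 at 1.92 (adjusted p = 0.00574) and Noc2l at 1.38 (adjusted p = 0.00555), which brought the day 1 count to 41 of 43. Since both genes helped to set the sides, this is a description and no support for a difference.

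All members, Rrs1 and Noc2l included, were also compared within 1 side. On the high side of day 1 alone, with 3 CTRL and 2 EXP libraries, 39 members were called higher. In that fit 973 of all 17554 genes tested were called higher. On the low side of day 4 alone, with 2 CTRL and 3 EXP libraries, 0 members were called by edgeR, with 17 at an unadjusted p under 0.05, and only 1 gene of all tested was called in that fit. Within day 1 EXP the 2 high-side libraries had the larger sums of the gene set, 3668 and 3242 CPM, against 2325 to 2814 in the 3 low-side libraries. Within CTRL the order was the other way. The high side of day 1 CTRL had 1234 to 1328 CPM and its low side 1357. In day 4 CTRL it was 1365 to 1466 CPM on the high side and 1485 to 1744 on the low side.

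**Figure D4:**
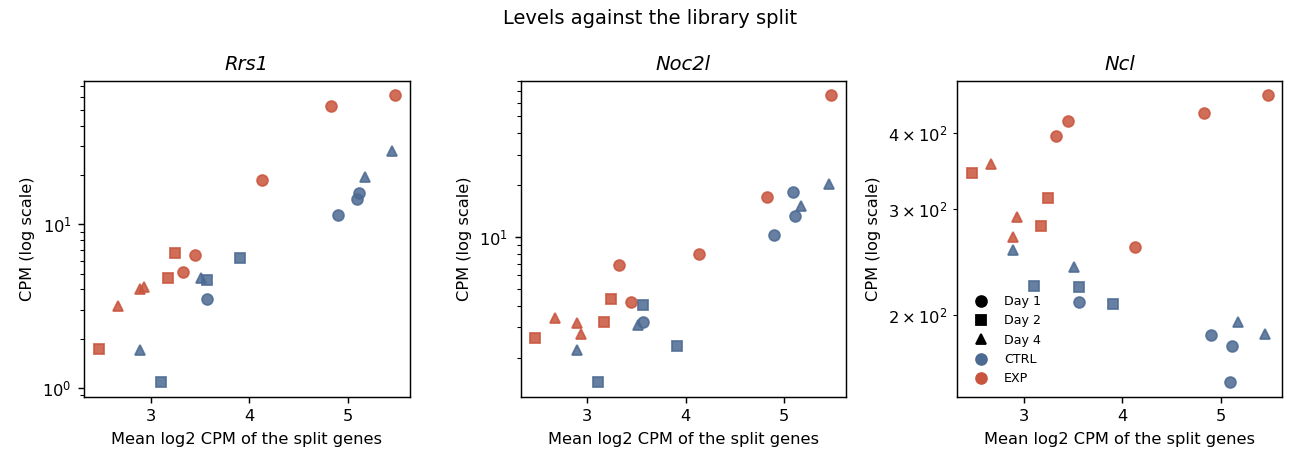
Level of Rrs1, Noc2l and Ncl (y axes, CPM on a log scale) against the mean log2 CPM of the 192 genes that separate the libraries (x axis), with 1 point per library, color for arm and marker shape for day. Rrs1 and Noc2l follow the x axis, whereas Ncl is ordered by arm.

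Whether the expander effect depended on the day was tested over all 3 days at once. The effect differed between days for 10 members (8.82% of all genes), namely Mrto4 (adjusted p = 0.00464), Nop14 (0.00806), Gnl3 (0.0120), Nolc1 (0.0128), Ddx21 (0.0172), Grwd1 (0.0190), Nob1 (0.0231), Nop56 (0.0335), Ppan (0.0336) and Tsr1 (0.0341). In all 10 the log2 fold change was highest on day 1 and lowest on day 4. Nop14 had the second smallest p after Mrto4, at 1.16 (SE 0.17, adjusted p = 8.07e-05), 0.34 (adjusted p = 0.305) and -0.18 (adjusted p = 0.523). Its day 1 libraries had 14.4 to 20.3 CPM in CTRL and 29.3 to 49.7 in EXP, and its day 4 libraries 24.1 to 33.9 in CTRL and 19.8 to 31.4 in EXP. The groups were apart on day 1 and overlapped on day 4.

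Between pairs of days, the effect was lower on day 4 than on day 1 for 13 members (5.18% of all genes). It was lower on day 2 than on day 1 for 1 member, Mrto4 (difference -1.07, adjusted p = 0.0223; 0.484% of all genes), with 15 at an unadjusted p under 0.05. Between day 4 and day 2 edgeR called 0 members, with 0 at an unadjusted p under 0.05, and DESeq2 called 0. For that pair of days edgeR also called 0 of all 17554 genes and DESeq2 35, so the 0 is not particular to the members. The 33 members without a called difference between days are not thereby shown to have had the same effect on each day.

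Levels within each arm were also compared over days, in fits that use the same EXP libraries as the tests above. Within EXP 16 members changed over the 3 days (14.3% of all genes), 22 were lower on day 4 than on day 1 (6.87%), and 3 were lower on day 2 than on day 1 (0.359%). Within CTRL edgeR called 0 members (0.291% of all genes), with 7 at an unadjusted p under 0.05. DESeq2 called 2 members there, and 525 of all 17554 genes. The count within EXP fell to 7 to 10 when any of EXP replicates 1, 2 and 5 of day 1, replicate 3 of day 2 or replicate 2 of day 4 was left out. It was 6 without the filter on low counts and 10 with the side of the library as a covariate. Day and any difference in processing between days cannot be told apart here.

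Other genes of ribosome biogenesis, from lists that hold none of the 43, were read from the same fits. Of 101 tested, 75 (74.3%) were called higher on day 1, 27 (26.7%) on day 2 and 18 (17.8%) on day 4, where 13.9%, 7.72% and 12.8% of all genes were. The day 4 share was thus close to that of all genes. On days 1, 2 and 4, 0, 1 and 0 were called lower by edgeR and by DESeq2, with 1, 2 and 0 at an unadjusted p under 0.05 in edgeR. Without 1 library of day 2 the day 2 count was as low as 9 (CTRL replicate 2 or EXP replicate 1), 15 (EXP replicate 3) or 16 (CTRL replicate 3), and without EXP replicate 1 of day 4 the day 4 count was 11. The median log2 fold change was 0.78, 0.40 and 0.29. Other small subunit processome genes were higher in 28 of 30 cases on day 1, 12 on day 2 and 5 on day 4. Other pre-60S genes were higher in 30 of 42 cases, then 12 and 7, with Nop53 lower on day 2 (-0.56, adjusted p = 0.0213), a call that was lost in 4 of 6 fits without 1 library of that day (-0.57 to -0.49). Other RNA polymerase I subunits and factors were higher in 7 of 9 cases on day 1 and in 0 by edgeR and by DESeq2 on days 2 and 4, with 2 and 0 higher at an unadjusted p under 0.05. Pre-40S factors were higher in 5 of 8, 1 and 1 cases, and subunits and partners of the RNA exosome, which trims rRNA ends, in 5 of 12, 2 and 5.

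The called genes with the smallest p in these lists also differed in their time courses. Rrp15, a pre-60S factor, had means of 9.84 ± 1.07 CPM in CTRL and 30.9 ± 4.86 in EXP on day 1 (log2 1.65, adjusted p = 8.75e-06), and was called on days 2 and 4 at 0.79 and 0.76. Pno1, a pre-40S factor, was nearly level over days at 0.99, 0.96 and 0.88 (adjusted p = 2.38e-05, 7.16e-04 and 5.50e-04). Wdr46 and Utp4 of the small subunit processome stood at 1.24 and 1.34 on day 1, 1.15 and 0.66 on day 2 and 0.82 and 0.45 on day 4, of which the last was not called (adjusted p = 0.0700). Rpf2, which works with Rrs1 in placing the 5S particle, was called on all 3 days at 1.38, 1.17 and 0.69, and so was Wdr18 at 0.78, 0.64 and 0.75. Polr1d, a subunit shared by RNA polymerases I and III, was called on day 1 only (0.93, adjusted p = 8.32e-04). Of exosome subunits, Exosc1 stood at 0.69, 0.74 and 0.69 and Exosc5 at 0.62, 0.72 and 1.02, with all of these called. Several of these calls were lost without single libraries of their day. On day 2 that held in 6 of 6 fits for Rrp15 (0.71 to 0.84), 5 for Exosc5 (0.58 to 0.79), 3 for Utp4 (0.58 to 0.65) and 2 each for Wdr18 (0.52 to 0.54) and Exosc1 (0.56 to 0.66). On day 4 it held in 5 of 7 fits for Rpf2 (0.64 to 0.66) and in 1 for Rrp15 (0.56), and on day 1 in 4 of 9 for Exosc5 (0.51 to 0.59).

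Myc itself was not called on any day. It had 293 to 384 CPM in day 1 CTRL and 215 to 395 in day 1 EXP, so the ranges overlapped, and its log2 fold change was -0.36 (SE 0.16), -0.26 (SE 0.20) and 0.12 (SE 0.19), with adjusted p = 0.106, 0.426 and 0.680. Its partner Max stood at 0.43 (adjusted p = 0.148), -0.01 and 0.23. Mxd4, a repressor that competes with Myc for Max, fell from 75.7 ± 6.28 to 32.7 ± 1.86 CPM on day 1 (log2 -1.21, SE 0.15, adjusted p = 1.33e-05) and was also lower on day 2 (-1.08, adjusted p = 8.51e-04), with -0.44 (adjusted p = 0.0649) on day 4. Mxd1 was higher on day 1 (0.86, adjusted p = 0.0321), but not in 6 of 9 fits without 1 library of that day (0.74 to 0.85). Mxd3, at 0.291 to 4.20 CPM in group means, was lower on day 1 (-2.30, adjusted p = 0.0310) and higher on day 4 (2.42, adjusted p = 0.0416). Single libraries carried both values. Day 1 CTRL had 0.453, 0.551, 3.83 and 0.957 CPM, and without its replicate 3 the value was -1.15 and not called. Day 4 EXP had 8.66, 2.08 and 1.86 CPM, and without its replicate 1 the value was 1.34 and not called. In all, 1, 0 and 1 of 10 genes of the Myc network were higher on days 1, 2 and 4, where 13.9%, 7.72% and 12.8% of all genes were. Of the 10, 2, 1 and 0 were lower, where 14.7%, 5.71% and 9.66% of all genes were. For 10 genes these counts are near those shares. These are mRNA levels, and the activity of the proteins was not measured.

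Promoters of the members were searched for CACGTG, the core E-box that Myc with Max and several related factors bind and that reads the same on both strands. RefSeq windows of GRCm38.p6, from 250 bases before to 50 after the start of the gene, were at hand for 38 of 43 members. CACGTG was in the window of 8 of these 38 genes (21.1%) and of 8.09% of all 27025 genes with a window. The 27025 genes were not limited to those past the filter on low counts, which all members passed, so the shares are not like for like. The sequence around each match is shown to let the contexts be compared, 5′ to 3′ on the strand of the gene, with the motif in capitals.

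Grwd1: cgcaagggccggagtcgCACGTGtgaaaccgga
Pes1: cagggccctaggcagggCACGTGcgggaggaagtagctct
Nop2: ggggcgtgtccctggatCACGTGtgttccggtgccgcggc
Wdr43: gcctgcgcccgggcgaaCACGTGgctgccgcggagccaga
Utp20: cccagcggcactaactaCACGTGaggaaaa
Ltv1: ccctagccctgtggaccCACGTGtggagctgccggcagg
Tsr1: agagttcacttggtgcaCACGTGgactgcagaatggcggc
Mybbp1a: tgactgtcttctgagccCACGTGtttg

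These stretches lie at Grwd1 chr7:45830740-45830772 (minus strand), Pes1 chr11:3963960-3963999 (plus strand), Nop2 chr6:125131806-125131845 (plus strand), Wdr43 chr17:71616215-71616254 (plus strand), Utp20 chr10:88826765-88826794 (minus strand), Ltv1 chr10:13193088-13193126 (minus strand), Tsr1 chr11:74898087-74898126 (plus strand), Mybbp1a chr11:72441350-72441376 (plus strand) of GRCm38.p6. In 7 of the 8 genes the motif begins 2 to 40 bases after the annotated start, and in Nop2 it begins 60 bases before it. The window of Grwd1, the member with the highest called fold change, is shown whole (chr7:45830740-45831039, minus strand), with its single CACGTG in capitals near the end.

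Grwd1: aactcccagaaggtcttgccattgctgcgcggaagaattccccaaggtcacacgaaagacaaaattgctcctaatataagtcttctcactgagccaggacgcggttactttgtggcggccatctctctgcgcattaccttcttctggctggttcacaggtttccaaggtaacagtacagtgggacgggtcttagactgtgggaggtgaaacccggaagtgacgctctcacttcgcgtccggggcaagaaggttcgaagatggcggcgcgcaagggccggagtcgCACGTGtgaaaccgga

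The 8 genes with the motif were called higher in 8, 6 and 5 cases on days 1, 2 and 4, and the 30 with a window but no motif in 27, 14 and 12. The median log2 fold changes were 1.27, 0.88 and 0.70 with the motif and 1.13, 0.62 and 0.53 without, and the ranges overlapped on each day (on day 1, 0.91 to 2.20 and 0.17 to 1.80). These are descriptions over few genes, and no test was made. The longer palindromic motifs of BANP and NRF1, which also read the same on both strands, were in 0 of 42 member windows and in 0.466% and 0.971% of all 32851 windows. A match is a match of letters, and binding was not measured.

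Counting could matter for some members. In the GENCODE M21 annotation 21 of the 43 share exonic bases with a neighbouring gene, such as Nop56 with Idh3b, Gnl3 with Pbrm1, Dkc1 with Mpp1 and Nhp2 with Rmnd5b, each on the opposite strand. Nop56, Nop58, Ncl, Ppan and Gnl3 also overlap annotated snoRNA genes on their own strand. Of those 5, which were grouped after their values were seen, Nop56, Ppan and Gnl3 had an effect that differed between days, and Nop58 and Ncl did not pass that test (adjusted p = 0.300 and 0.129).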

How the data were processed

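RNA-seq of sorted mouse skin fibroblasts was analysed from 1 table of raw counts that the authors deposited, with 22 libraries as columns and Ensembl identifiers as names. Per the submitters' processing notes, Trimmomatic and the genome build mm39 were used. The aligner, counting tool, annotation release and strand setting are not given in the sources used here. GENCODE M21 named 52081 of 55414 identifiers, and 3 genes of the wider pathway lists (Polr1f, Polr1g and Polr1h) were unmatched. A further listed gene, Exosc6, was below the filter. Promoter windows were RefSeq's on GRCm38.p6, and no coordinates of mm39 are given.

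Counts were fitted in R 4.3.3 with edgeR 4.0.16 (filterByExpr with a minimum count of 10, TMM, robust quasi-likelihood F-test, a mean per group over all 22 libraries, 16 residual degrees of freedom). P-values were adjusted by Benjamini-Hochberg over 17554 genes per contrast, with calls under 0.05. CPM are on TMM-scaled totals, and log2 CPM used a prior count of 2. DESeq2 1.42.0, other scalings, no low-count filter, each day on its own, the replicate number as a block, the side of the library split (as a covariate, or 1 side only) and leaving out each library were the alternatives. The procedure was tested on simulated data. The level taken as the floor was 3 counts, and intervals and floors of this kind cover counting error only, as reads carry no molecular identifiers.

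The split of libraries was read from the 192 genes correlated above 0.9 with Rnf10 after removal of group means, and is a property of the data, not a label. Same-numbered EXP and CTRL libraries did not deviate together throughout (r from -0.07 to 0.16), so numbers were not taken as pairs. Full values were given for the members with the smallest p in each direction and day (4 each), the 4 with the smallest p for dependence on day, and in each of 7 role classes the most abundant member and the called member with the largest change, and in the wider lists for the called gene with the smallest p on each day. The members and lists were chosen with earlier results of these data known.

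Of 9 marker lists, those for fibroblasts, immune cells, adipocytes and endothelium are given in the text. The highest sum in any library was 57.1 CPM for keratinocytes, 37.1 for melanocytes and mast cells, 60.2 for pericytes and smooth muscle, 4.48 for skeletal muscle (Myog at 0 throughout) and 17.1 for Schwann cells. Pericyte and smooth muscle markers summed to 48.2 to 53.8 CPM in day 2 CTRL and 12.8 to 26.7 in day 2 EXP. Most of that sum was Kcnj8, at means of 43.8 and 15.8 CPM. Rgs5 (0.033 and 0.133) and Cnn1 (0.080 and 0.095) went the other way at very low levels.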

Additional observations from a re-analysis of the deposited data

Results flagged for a closer look

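In groups of 4 or 5 libraries, 132 sets of member values were examined for a library far from the others, and 5 had one, where chance at 1 in 20 would give 6.6. In day 1 CTRL, Nop58 had 71.5 CPM in replicate 1 and 94.1 to 96.1 in the others, and Bysl had 12.2 in replicate 1 and 14.95 to 15.3 in the others. Wdr43 had 82.6 CPM in replicate 2 and 62.3 to 65.3 in the others. Noc4l had 16.99 CPM in replicate 3 and 28.1 to 29.2 in the others. In day 1 EXP, Noc2l had 66.2 CPM in replicate 1 and 4.19 to 16.997 in the others, and without that library its log2 fold change was -0.30 in place of 0.87.

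The expander effect differed between the 3 days for 10 members by the joint edgeR test of the difference itself. The adjusted p was 0.00464 for Mrto4, 0.00806 for Nop14, 0.0120 for Gnl3, 0.0128 for Nolc1, 0.0172 for Ddx21, 0.0190 for Grwd1, 0.0231 for Nob1, 0.0335 for Nop56, 0.0336 for Ppan and 0.0341 for Tsr1.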

How the results depend on the processing

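With 1 library left out at a time, members called higher numbered 38 to 39 on day 1, 12 to 24 on day 2 and 12 to 22 on day 4, with 0 lower in every such fit. Members with a day-dependent effect numbered 7 to 14, with a change over days within EXP 7 to 23 and within CTRL 0. Wider pathway genes called higher (111 tested, Myc network included) numbered 66 to 78, 9 to 30 and 11 to 22. The members' median log2 fold change was 1.07 to 1.25, 0.61 to 0.80 and 0.51 to 0.62.

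Scaling by library totals gave 39 members higher on day 2 (all genes 23.9%), 32 on day 4 (24.3%) and 1 changed over days in CTRL. It also gave 76 and 62 wider genes higher on days 2 and 4, and medians of 1.22 and 0.94. Totals without the top 10 genes gave a day 2 median of 0.84. Fitting each day on its own gave 7 members and 4 wider genes on day 4, and the low side of the libraries alone gave 0 and 0. Over all 17554 genes, those called higher on day 4 then numbered 728 and 1, against 2248 in the main fit. Without the low-count filter 6 members changed over days in EXP and 14 wider genes were higher on day 2. With the library split as a covariate 10 members changed within EXP. DESeq2 called 2 within CTRL, and 6 members with a lower effect on day 2 than on day 1 where edgeR called 1. Over all 17554 genes these counts were 525 and 313 by DESeq2, and 51 and 85 by edgeR. The cause of these shifts was not tested, beyond fewer libraries in the fits of 1 day or 1 side.

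With the replicate number as a block, 39, 22 and 20 members were called higher, 0 had a day-dependent effect (14 at an unadjusted p under 0.05) 5 had a lower effect on day 4 than on day 1 (13 without the block) and 6 changed within EXP; labels do not tie the numbers to a shared animal or day.

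Signs turned only for values not called. Library totals gave 0.10 for Gnl3, 0.10 for Nop14, 0.29 for Nop56 and 0.17 for Nop58 on day 4. For Nop56 on day 4 the value was 0.053 without the top 10 genes in the totals, 0.00966 without the filter, 0.035 with the replicate block, 0.16 with the split covariate, 0.031 on 1 side, and from -0.24 to 0.095 with 1 library left out. The split covariate and 1 side gave 0.13 and 0.23 for Noc2l and 0.017 and 0.24 for Rrs1 on day 4. Leaving out 1 library gave -0.30 to 1.20 for Noc2l on day 1, -0.31 to 0.64 for Rrs1 on day 2 and -0.32 to 0.11 for Nop58 on day 4. Libraries of 21461294 to 30210204 counts put every member at 24 counts or more, and groups of 3 to 5 libraries limit the precision.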
